A study of Mus musculus with 6 samples.

Results

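The genes described here are the 10 genes of MHC class I antigen presentation chosen by symbol, *H2-D1*, *H2-K1*, *H2-Q4*, *H2-T23*, *B2m*, *Tap1*, *Tap2*, *Tapbp*, *Psmb8* and *Nlrc5*, out of 24972 rows of a gene expression table. The table comes from RNA sequencing of primary macrophages grown from mouse bone marrow in medium with L929 cell supernatant, a source of macrophage colony-stimulating factor, and left untreated. There were 3 libraries from wild-type marrow (WT) and 3 from marrow with *Lcn10*, a lipocalin gene, knocked out (Lcn10-KO). The labels used here give no strain, age, sex or design of the knockout allele. They also leave unsaid whether each library is a mouse of its own, and a p-value then reflects how far libraries of a genotype lie apart, which can be technical variation alone.

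Class I molecules show peptides from inside the cell to CD8 T cells. Proteasomes cut proteins into peptides, the TAP transporter carries these into the endoplasmic reticulum, and tapasin holds empty class I molecules at the transporter until a peptide is bound. Each molecule on the surface is a heavy chain, coded by an H2 gene in the mouse, with the light chain beta-2 microglobulin, coded by *B2m*. NLRC5 is a transactivator that acts on the promoters of heavy chain genes and of several partners, and interferon raises most of these genes in macrophages.

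Of the heavy chain genes 3 of 4, and the light chain gene, were higher in Lcn10-KO than in WT, and the genes for peptide supply and for the transactivator did not pass the test. Of the 10 genes, all of which passed the filter on low values, 4 rose in Lcn10-KO (*H2-D1*, *H2-K1*, *H2-Q4* and *B2m*, by 15.1% to 28.9%), 0 fell and 6 did not pass. Among all 12091 tested genes 9.84% passed the same threshold, 4.7% toward higher and 5.14% toward lower values. The median log2 fold change was 0.09 over the 10 genes and 0.00 over all tested genes. In the 4 genes that rose, every Lcn10-KO library lay above every WT library, and in the other 6 the genotypes overlapped. Over all tested genes, the genotypes did not overlap in 32.4%. Log2(value + 1) was compared by limma, with its trend of variance on level, and adjusted by Benjamini-Hochberg over every tested gene at a threshold of 0.05. The count of 4 genes fell to 0 in limma without the trend, to 2 without Lcn10-KO replicate 1 or replicate 3, and to 1 without Lcn10-KO replicate 2.

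The heavy chain genes are shown first by sequence, because they resemble each other closely enough for a read to match several of them. Over aligned coding bases (GENCODE M21 transcripts), *H2-D1* was 91.4% identical to *H2-K1* and 90.3% identical to *H2-Q4*, and *H2-T23* was 80.7% to 81.4% identical to the other three. Below are 75 coding bases of each gene from the stretch that was most alike, with capitals where a gene differs from *H2-D1*. All 4 genes had the same base at 73 of 75 positions there.
H2-D1: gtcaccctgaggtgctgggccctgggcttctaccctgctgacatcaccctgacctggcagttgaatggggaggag
H2-K1: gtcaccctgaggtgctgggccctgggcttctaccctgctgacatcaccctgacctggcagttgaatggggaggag
H2-Q4: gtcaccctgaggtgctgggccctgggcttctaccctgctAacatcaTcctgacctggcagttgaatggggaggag
H2-T23: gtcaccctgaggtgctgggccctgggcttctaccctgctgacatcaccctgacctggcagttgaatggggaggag

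The stretch that was least alike had the same base in all 4 genes at 36 of 75 positions, and is shown with the same use of capitals. *H2-K1* differed from *H2-D1* at 16 of these bases, *H2-Q4* at 9 and *H2-T23* at 34.
H2-D1: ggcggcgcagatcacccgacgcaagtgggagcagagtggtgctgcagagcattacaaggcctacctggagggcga
H2-K1: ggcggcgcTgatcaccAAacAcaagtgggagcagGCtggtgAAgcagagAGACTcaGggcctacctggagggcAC
H2-Q4: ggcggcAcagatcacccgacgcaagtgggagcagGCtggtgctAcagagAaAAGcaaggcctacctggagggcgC
H2-T23: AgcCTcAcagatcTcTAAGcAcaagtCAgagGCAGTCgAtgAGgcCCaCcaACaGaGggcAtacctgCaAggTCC

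A read lying within the first stretch would have the same letters from *H2-D1*, *H2-K1* and *H2-T23*, and a read covering the second stretch would not. Of all 31-base words of its transcript, *H2-D1* shared 27.5% with a transcript of at least 1 other gene, *H2-K1* 23.3%, *H2-Q4* 43.4% and *H2-T23* 48.7%. *H2-Q4* shared most with *H2-Q6* (17.1% of its words), and *H2-T23* with the pseudogene *H2-T-ps* (25.3%). The values of single H2 genes therefore depend on how shared reads were divided, and the sum over the 4 genes is given beside them. *B2m*, *Psmb8* and *Nlrc5* shared 0 words with any other gene, and *Tapbp* shared 2.86%, with *Tap1* and *Tap2* below that.

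The promoters of the genes that rose are shown because class I promoters are known to carry a compact set of elements. These are an NF-kB site, an interferon-stimulated response element, and an X box and a Y box. RFX binds the X1 part of the X box, CREB and ATF proteins its X2 part and NF-Y the Y box, and NLRC5 is recruited to these proteins. The X1 part was not searched for here. The sequences are the 190 bases before the RefSeq start site (GRCm38.p6, the assembly named mm10 by the browser, read along the gene's own strand), where 8 of the 10 genes had an entry. Capitals mark matches on either strand. The letters searched were an NF-kB motif (GGG, any 2 bases, TT, any base, CC), GAANNGAAA (a short form of the response element core), TGACG (X2 core) and ATTGG (Y box). The pair of NF-kB matches in *H2-Q4* overlap.
H2-D1, chr17:35262904-35263093, plus strand: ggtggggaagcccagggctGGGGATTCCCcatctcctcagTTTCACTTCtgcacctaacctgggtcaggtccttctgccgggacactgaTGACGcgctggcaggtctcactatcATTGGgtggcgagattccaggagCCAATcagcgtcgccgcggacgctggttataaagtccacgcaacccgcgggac
H2-K1, chr17:34000334-34000523, minus strand: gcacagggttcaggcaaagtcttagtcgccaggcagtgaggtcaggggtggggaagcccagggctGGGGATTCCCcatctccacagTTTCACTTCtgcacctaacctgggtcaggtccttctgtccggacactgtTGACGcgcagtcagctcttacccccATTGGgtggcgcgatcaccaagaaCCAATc
H2-Q4, chr17:35379427-35379616, plus strand: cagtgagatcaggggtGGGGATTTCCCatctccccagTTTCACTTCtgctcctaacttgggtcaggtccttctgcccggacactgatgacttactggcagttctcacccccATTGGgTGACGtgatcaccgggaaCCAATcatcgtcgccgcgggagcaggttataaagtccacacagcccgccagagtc
B2m, chr2:122147497-122147686, plus strand: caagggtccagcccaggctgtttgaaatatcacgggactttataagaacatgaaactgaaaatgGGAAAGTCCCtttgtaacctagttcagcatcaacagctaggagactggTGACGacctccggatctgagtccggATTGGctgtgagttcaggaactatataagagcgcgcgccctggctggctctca

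For comparison, the same stretch is shown of *H2-T23* and *Tap1*, which did not pass the test.
H2-T23, chr17:36032702-36032891, minus strand: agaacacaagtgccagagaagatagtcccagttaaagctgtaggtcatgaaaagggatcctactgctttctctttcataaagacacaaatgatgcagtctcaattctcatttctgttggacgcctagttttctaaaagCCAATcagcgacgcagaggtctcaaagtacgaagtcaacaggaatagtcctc
Tap1, chr17:34187366-34187555, plus strand: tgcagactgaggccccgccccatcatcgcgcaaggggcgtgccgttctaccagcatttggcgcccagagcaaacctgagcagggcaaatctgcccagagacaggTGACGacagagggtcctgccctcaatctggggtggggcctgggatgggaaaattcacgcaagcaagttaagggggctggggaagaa

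In the whole windows, from 250 bases before to 50 after the start, the NF-kB letters were found in the 4 genes that rose and in none of the other 4 genes with an entry, against 4.79% of all 32851 promoter entries. The genes were divided here by their calls in these same data, and a link between the motif and the calls was not tested. The response element letters GAANNGAAA were found in *H2-D1*, *H2-K1* and *H2-Q4* (7.52% of all entries). The printed stretches of *B2m* (gaaactgaaa) and *H2-T23* (tttctctttc, read on the other strand) hold a longer form of the element, with an extra A. The searched letters do not match this form. The element's letters were thus not confined to *H2-D1*, *H2-K1* and *H2-Q4*, and were also present in *H2-T23*, which did not pass the test. The longer form and others were not searched for over the windows. A gene without a match is therefore not shown to lack the element. The letters of the X2 core were found in 5 of 8 genes (20.8%) and those of the Y box in 7 of 8 (37.4%), wherever they lay in the window. In *H2-Q4* the TGACG before the start site began at −73, after the ATTGG at −79. In *Tap1* it began at −86 and no Y box match followed, so these 2 matches are not shown to be X2 elements. In *H2-D1*, *H2-K1* and *B2m* the X2 core was followed by a Y box whose first base lay 25 bases further on, an arrangement present in 31 of the 32851 entries (0.0944%) and looked for after the sequences were seen. *H2-Q4*, which rose, did not have it. Entries with the arrangement also included the heavy chain gene *H2-M3* (log2 fold change 0.001, limma adjusted p = 0.995) and *Trim26* and *Znrd1* of the MHC region, none of which passed the test. The H2 genes share descent, so these matches are not independent of each other. A match is a run of letters and does not show that a factor was bound in these cells.

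**Figure D1:**
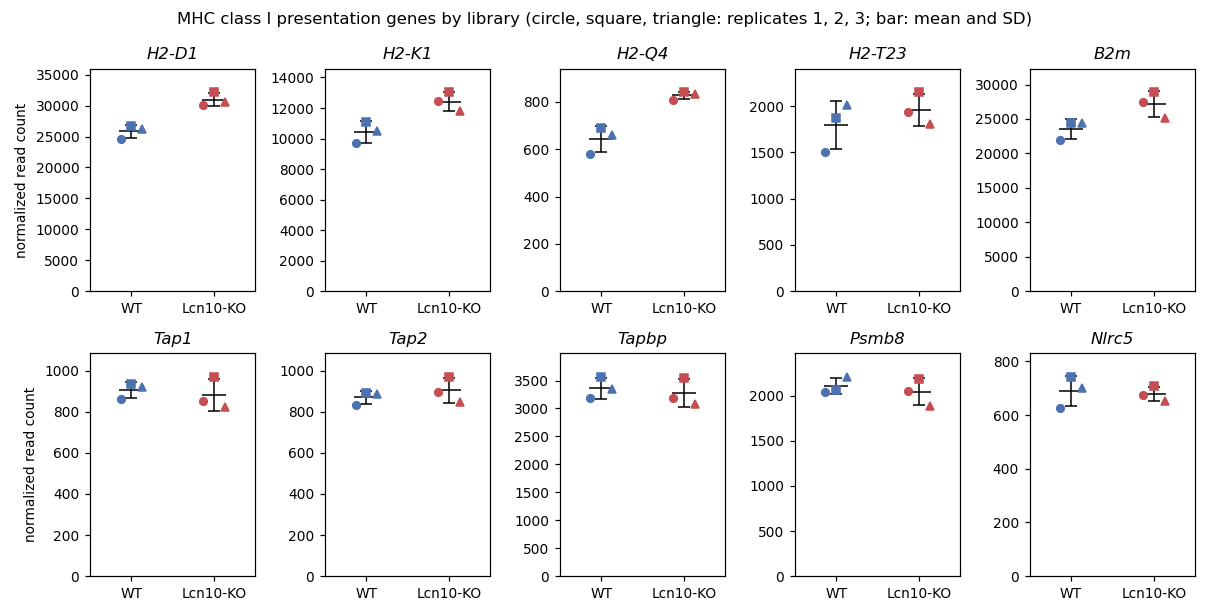
Normalized read count of each of the 10 genes (vertical axes, each starting at 0) in the 3 WT and 3 Lcn10-KO libraries, with the mean and SD of each genotype as a bar. In *H2-D1*, *H2-K1*, *H2-Q4* and *B2m* the Lcn10-KO points lie above all WT points, and in the other 6 genes the genotypes overlap.

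*H2-D1* (ENSMUSG00000073411.11, chromosome 17, 35262730 to 35267499, plus strand, GRCm38) codes for a classical heavy chain. It lay at 24681, 26654 and 26295 normalized read counts in WT replicates 1 to 3 and at 30147, 32127 and 30530.0 in Lcn10-KO replicates 1 to 3. The lowest Lcn10-KO library thus exceeded the highest WT library. The log2 fold change, Lcn10-KO minus WT, was 0.26 ± 0.04 (SE; limma adjusted p = 0.00561), a 1.20-fold difference. The adjusted p was 0.0496 without Lcn10-KO replicate 2 and was 0.106 without the trend.

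*H2-K1* (ENSMUSG00000061232.16, chromosome 17, 33996017 to 34000347, minus strand) codes for the other classical heavy chain measured here. Its values were 9703, 11104 and 10464 in WT and 12432, 13020.0 and 11805 in Lcn10-KO replicates 1 to 3, again without overlap. The log2 fold change was 0.25 ± 0.05 (SE; limma adjusted p = 0.0142). It did not pass without Lcn10-KO replicate 1 (limma adjusted p = 0.0548), without Lcn10-KO replicate 2 (0.0898) or without the trend (0.134).

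*H2-Q4* (ENSMUSG00000035929.11, chromosome 17, 35379617 to 35385290, plus strand), a nonclassical heavy chain gene of the Q region, showed the largest fold change of the 10. It lay at 580.5, 688 and 661 in WT and at 809.9, 839.8 and 831 in Lcn10-KO replicates 1 to 3. The Lcn10-KO libraries were close together and the WT libraries more spread, with WT replicate 1 lowest. The log2 fold change was 0.37 ± 0.07 (SE; limma adjusted p = 0.00785), and 0.0536 and 0.0568 were the adjusted p without Lcn10-KO replicate 2 or 3. Without the trend it was 0.104.

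*H2-T23* (ENSMUSG00000067212.8, chromosome 17, 36029773 to 36032855, minus strand) codes for Qa-1, a nonclassical heavy chain that presents leader peptides of other class I molecules to receptors on NK cells. Its values of 1509, 1867 and 2014 in WT and 1932, 2149 and 1809 in Lcn10-KO overlapped. WT replicate 1 was the lowest library and Lcn10-KO replicate 2 the highest. The log2 fold change was 0.13 ± 0.12 (SE; limma adjusted p = 0.535), with a 95% confidence interval from −0.15 to 0.41 that also holds the fold changes of *H2-D1*, *H2-K1* and *H2-Q4*.

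*B2m* (ENSMUSG00000060802.8, chromosome 2, 122147686 to 122153083, plus strand), the light chain gene, lies outside the MHC. It had 21909, 24398 and 24469.6 normalized read counts in WT and 27464, 28851 and 25187 in Lcn10-KO replicates 1 to 3. The genotypes did not overlap, but Lcn10-KO replicate 3 lay close to WT replicates 2 and 3. Its log2 fold change was 0.20 ± 0.06 (SE; limma adjusted p = 0.0490), just inside the threshold. The call was lost in 8 of 16 alternatives, among them quantile normalization (log2 fold change 0.15, adjusted p = 0.0801), limma without robust estimation (0.0550), limma without the trend (0.193) and each omission of a library other than WT replicate 2 (0.0586 to 0.200).

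Summed per library, the 4 heavy chain genes gave 36474, 40313 and 39434 in WT and 45321, 48136 and 44975 in Lcn10-KO. Lcn10-KO was 1.19 times WT, with no overlap (exact two-sided permutation p = 0.1, the smallest that 3 against 3 libraries allow). With all 16 listed heavy chain genes in the sum, the log2 difference was 0.25 as well, and the division of reads among those genes does not enter it. Within the sum of 4, the shares of the leading genes overlapped between genotypes. *H2-D1* took 66.8% ± 0.784 (SD, n = 3) of the sum in WT and 67.0% ± 0.731 in Lcn10-KO, and *H2-K1* 26.9% ± 0.564 and 26.9% ± 0.604. The small share of *H2-Q4* did not overlap, at 1.66% ± 0.0595 in WT and 1.79% ± 0.0523 in Lcn10-KO. That of *H2-T23* overlapped (4.63% ± 0.485 and 4.25% ± 0.221), and no test is given for the shares. The ratio of *H2-K1* to *H2-D1* was 0.403 ± 0.0124 and 0.401 ± 0.0133 (exact permutation p = 1). *B2m* relative to the sum was 0.609 ± 0.0104 in WT and 0.588 ± 0.0249 in Lcn10-KO (exact permutation p = 0.3), with Lcn10-KO replicate 3 lowest at 0.560. These are 3 ratios and 1 sum with a test of their own, counting the *Psmb8* to *Psmb5* ratio below, and at 3 against 3 libraries none could pass a threshold of 0.05.

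None of the 4 genes of peptide supply passed the test. *Tap1* (ENSMUSG00000037321.17, chromosome 17, 34187553 to 34197225, plus strand), a subunit of the TAP transporter, lay at 864.7, 937 and 918.8 in WT and at 851, 968 and 824 in Lcn10-KO. *Tap2* (ENSMUSG00000024339.12, chromosome 17, 34203527 to 34216321, plus strand), the partner subunit, lay at 834, 890.5 and 884 in WT and at 895, 967 and 848 in Lcn10-KO. In both genes Lcn10-KO replicate 2 was the highest library of all and the genotypes overlapped. Their log2 fold changes were −0.04 ± 0.07 and 0.05 ± 0.06 (SE; limma adjusted p = 0.725 and 0.624). The 95% confidence intervals ran from −0.19 to 0.10 for *Tap1* and from −0.08 to 0.18 for *Tap2*.

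*Tapbp* (ENSMUSG00000024308.15, chromosome 17, 33915899 to 33929292, plus strand), the tapasin gene, lay at 3183, 3557 and 3350 in WT and at 3183, 3551 and 3083 in Lcn10-KO. *Psmb8* (ENSMUSG00000024338.15, chromosome 17, 34197721 to 34201454, plus strand), an inducible catalytic subunit of the immunoproteasome, lay at 2040.5, 2062 and 2203 in WT and at 2055, 2182 and 1885 in Lcn10-KO. In neither gene were the genotypes apart. Both had a log2 fold change of −0.04 ± 0.06 (SE; limma adjusted p = 0.713 and 0.674), with 95% confidence intervals from −0.17 to 0.09 and from −0.17 to 0.08.

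*Nlrc5* (ENSMUSG00000074151.13, chromosome 8, 94434356 to 94527272, plus strand), the transactivator, lay at 627.7, 740.3 and 698.8 in WT and at 675.9, 706 and 653.9 in Lcn10-KO. All 3 Lcn10-KO values fell between the lowest and the highest WT value. Its log2 fold change was −0.02 ± 0.07 (SE; limma adjusted p = 0.897), with a 95% confidence interval from −0.17 to 0.13.

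Within each library, the sum of the 4 heavy chain genes was 5.27, 5.41 and 5.36 times the sum of *Tap1*, *Tap2*, *Tapbp* and *Psmb8* in WT. It was 6.49, 6.28 and 6.77 times that sum in Lcn10-KO. The genotypes were apart in this ratio, which does not depend on scaling between libraries and was formed after the values were seen, so no test is given. The sum of the 4 supply genes itself overlapped, at 6922 to 7447 in WT and 6640.3 to 7669 in Lcn10-KO. *Psmb8* takes the place of the constitutive subunit *Psmb5* in the immunoproteasome, and their ratio was 0.728, 0.905 and 0.895 in WT and 0.879, 0.967 and 0.834 in Lcn10-KO (exact permutation p = 0.7). WT replicate 1 was the low library in that ratio.

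**Figure D2:**
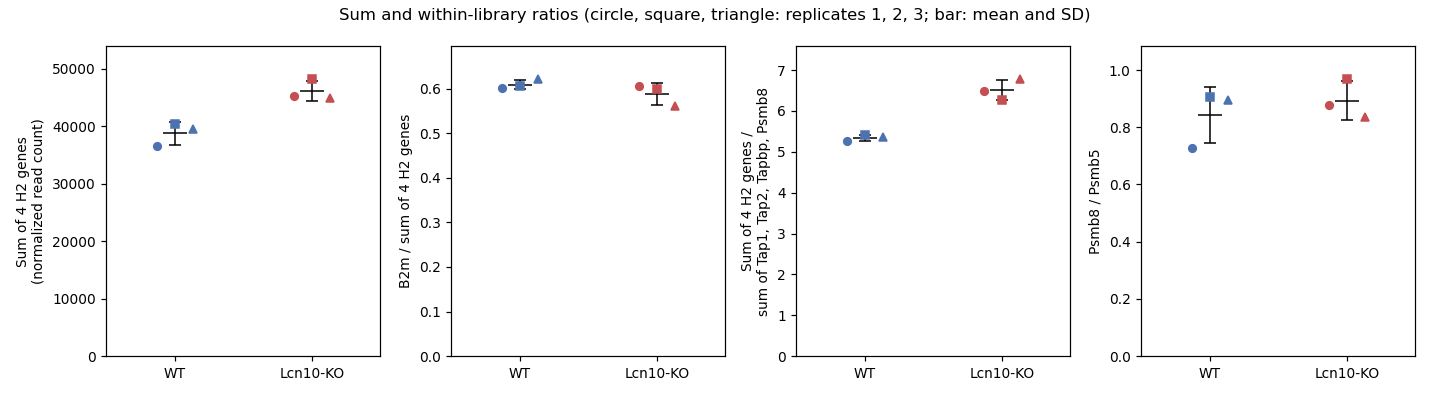
Sum of the 4 heavy chain genes in normalized read counts, and 3 ratios formed within each library, for the 3 WT and 3 Lcn10-KO libraries with mean and SD (vertical axes start at 0). The sum and its ratio to *Tap1*, *Tap2*, *Tapbp* and *Psmb8* (WT 5.27 to 5.41, Lcn10-KO 6.28 to 6.77) separate the genotypes, and the ratios of *B2m* to the sum and of *Psmb8* to *Psmb5* overlap.

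The level of a transcript was compared between genes per kilobase of annotated exon sequence. In WT, *B2m* came first with 27433 ± 1695 (SD, n = 3) normalized read counts per kilobase, rank 18 of 11882 tested genes with a length, and *H2-D1* followed at 11470.2 ± 466 (rank 72). *H2-K1* had 5334 ± 359 (rank 199). These 3 genes did not overlap with one another in any library. *Psmb8* (1259 ± 52.7), *H2-T23* (1221 ± 176) and *Tapbp* (1003 ± 56.0) formed a middle group in which neighbours overlapped. *H2-Q4* (359 ± 31.2) and *Tap1* (307 ± 12.8) overlapped too, with *Tap2* below at 240.3 ± 8.54 and *Nlrc5* lowest at 84.3 ± 6.97, rank 7936. The genes that rose were therefore the 3 most abundant of the 10 and *H2-Q4*, which stands in the lower part of the order.

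Libraries of 1 genotype also had a common order across the 10 genes. WT replicate 1 was the lowest WT library in 10 of 10 genes, against 37.4% of all tested genes, and Lcn10-KO replicate 2 was the highest Lcn10-KO library in 10 of 10, against 30.4%. Lcn10-KO replicate 3 was the lowest of its genotype in 8 of 10 (34.1% of all tested genes). Without WT replicate 1 the log2 fold changes were 0.22 for *H2-D1*, 0.20 for *H2-K1* and 0.29 for *H2-Q4*, all still past the threshold (limma adjusted p of 0.000901, 0.00605 and 0.00281). For *B2m* the change was 0.15 and did not pass (0.0589).

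**Figure D3:**
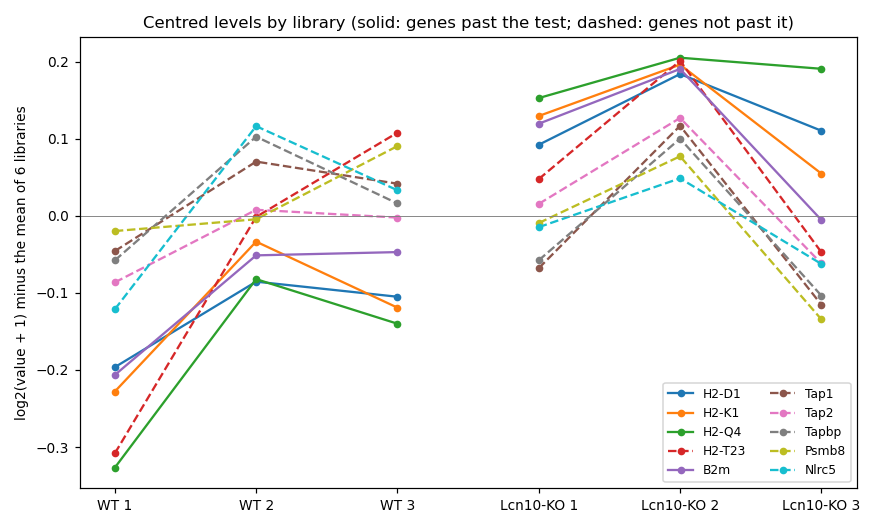
Level of each gene in each library as log2(value + 1) minus the gene's mean over the 6 libraries (vertical axis), with lines that only show which points belong to 1 gene, since replicates have no order. WT replicate 1 is the lowest WT library and Lcn10-KO replicate 2 the highest Lcn10-KO library in 10 of 10 genes.

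**Figure D4:**
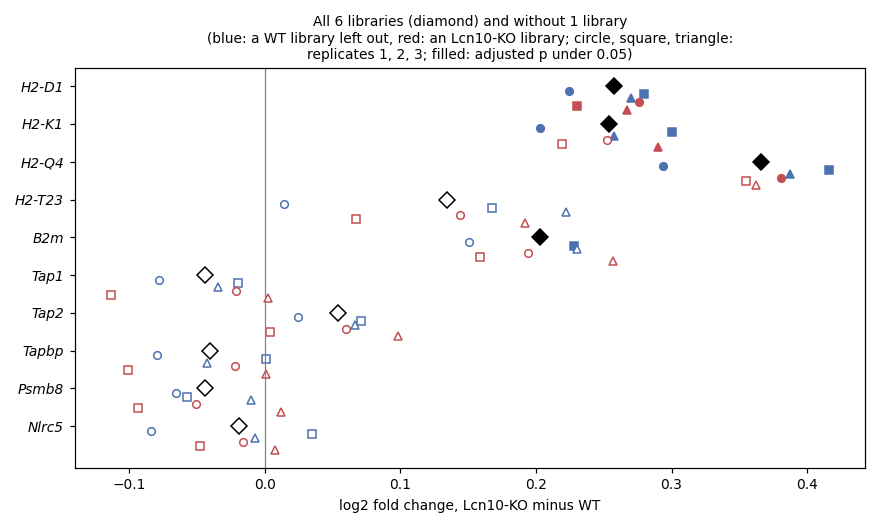
Log2 fold change (horizontal axis) of each gene with all 6 libraries and with each library left out in turn. *H2-D1* stayed past the threshold in all 6 omissions, *H2-K1* and *H2-Q4* in 4 of 6 and *B2m* in 1 of 6, and the other genes passed in none.

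By the rule for the most similar pattern, the 5 genes whose log2 values followed the mean of the 10 most closely over the 6 libraries were *Hmox2*, *Sdhb*, *Rps4x*, *Tlr9* and *Jak3* (Pearson r of 0.997, 0.995, 0.989, 0.987 and 0.981, out of 10201 genes searched). None of them passed the test (limma adjusted p of 0.0902 to 0.458). These correlations describe 6 libraries of 2 genotypes, which all genes share, and carry no p.

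Other genes of the pathway were taken from lists fixed by name with earlier results of these data known. Among proteins that pair with beta-2 microglobulin but present no classical peptides, 1 of 4 genes rose and 0 fell. This was *Fcgrt*, the heavy chain of the neonatal Fc receptor, at 573, 647 and 642 in WT and 851, 945 and 851 in Lcn10-KO. Every Lcn10-KO library was above every WT library, and the log2 fold change was 0.51 ± 0.07 (SE; limma adjusted p = 0.00128), lost only without the trend (0.0796). *Hfe*, an iron regulator (0.21 ± 0.10), *Mr1*, which presents vitamin metabolites (0.19 ± 0.10), and *Cd1d1*, which presents lipids (0.20 ± 0.11), had positive fold changes that did not pass (limma adjusted p of 0.229 to 0.293). The list's median log2 fold change was 0.20.

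Of 12 other class I heavy chain genes, 6 were tested and 0 passed, with 0 at an unadjusted p under 0.05 by limma. *H2-M3*, which presents formylated peptides, lay at 571, 642 and 598 in WT and 598, 626 and 585 in Lcn10-KO. *H2-T22* and *H2-T10*, ligands of gamma-delta T cells, had log2 fold changes of 0.01 ± 0.10 and 0.12 ± 0.13, and *H2-Q6* and *H2-Q7* of 0.06 ± 0.24 and 0.07 ± 0.22. The last pair are low genes with wide errors, and *H2-Q6* shares the most words with *H2-Q4*. Over the 12 genes the summed level was 1110 to 1246 in WT and 1170 to 1267 in Lcn10-KO, with overlap.

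In the rest of the immunoproteasome, 0 of 4 genes passed, with 0 at an unadjusted p under 0.05. *Psmb9*, whose start site lies next to that of *Tap1* on the opposite strand, had a log2 fold change of 0.13 ± 0.10, *Psmb10* of 0.07 ± 0.06, and the activator subunits *Psme1* and *Psme2* of 0.01 ± 0.06 and −0.04 ± 0.06. The constitutive proteasome core had 0 of 15 called and 2 at an unadjusted p under 0.05, *Psmb3* (−0.14 ± 0.05) and *Psmb6* (0.11 ± 0.05). *Tap1* overlaps *Psmb9*, and *Tapbp* overlaps *Zbtb22*. Strand use in the counting is not given in the sources used here, so reads of such pairs may be mixed.

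Peptide loading and trimming in the endoplasmic reticulum included genes that fell. Of 6 genes, 0 rose and 2 fell, with a median log2 fold change of −0.13. *Calr*, the chaperone calreticulin of the loading complex, lay at 21654, 21132 and 20747 in WT and 18847, 17913 and 17961 in Lcn10-KO, with no overlap. It fell by 0.22 ± 0.04 on the log2 scale (SE; limma adjusted p = 0.00831), and lost the call without Lcn10-KO replicate 2 (0.0658) or 3 (0.0595) and without the trend (0.107). *Erap1*, the aminopeptidase that trims peptides to class I length, fell by 0.16 ± 0.05 (limma adjusted p = 0.0485), a call lost in most alternatives (0.0502 to 0.178 where lost). *Pdia3* and *Uggt1*, which act with calreticulin in folding, had log2 fold changes of −0.12 ± 0.04 and −0.15 ± 0.04 and did not pass (limma adjusted p = 0.0646 and 0.0569). All 4 of these genes had every Lcn10-KO library below every WT library, as had 2044 of all 12091 tested genes.

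Among 24 genes that control class I transcription, 1 rose and 0 fell. *Rfx5*, a subunit of the RFX complex that binds the X box of class I and class II promoters, lay at 199.7, 252 and 220.2 in WT and 288, 275 and 306 in Lcn10-KO (log2 fold change 0.37 ± 0.10, limma adjusted p = 0.0341). The genotypes did not overlap, but the call was lost in each omission of a library other than WT replicate 2 (0.0574 to 0.140) and without the trend (0.129). *Irf1*, an activator of class I genes, and *Ifngr2*, a chain of the interferon gamma receptor, had log2 fold changes of 0.13 ± 0.07 and 0.10 ± 0.05 and did not pass (limma adjusted p = 0.257 and 0.174).

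Of 28 tested interferon-stimulated genes, 1 rose and 0 fell, with a median log2 fold change of −0.05. The gene was *Gbp5*, a guanylate-binding protein at low level, with 6.85, 9.10 and 8.25 in WT and 18.1, 21.96 and 19.8 in Lcn10-KO (log2 fold change 1.21 ± 0.32, limma adjusted p = 0.0335). All 3 WT values were below the filter's minimum of 10, so *Gbp5* entered the test only through the Lcn10-KO libraries, where it was high. It did not pass under quantile normalization (0.0508) or without WT replicate 3 (0.0625), and was not tested with a minimum of 50 or without any one of the Lcn10-KO libraries. *Ifi27l2a* lay at 699.8 to 1013 in WT and 1291 to 1951 in Lcn10-KO without passing (limma adjusted p = 0.0908), whereas *Bst2* had a log2 fold change of −0.16 ± 0.09. The other 27 of 28 did not pass the test.

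Class II presentation, the pathway for peptides taken up from outside, had 0 of 10 tested genes called and 3 at an unadjusted p under 0.05. *H2-Eb1*, a class II beta chain (log2 fold change 0.48 ± 0.14), *Ctss*, the protease cathepsin S (0.14 ± 0.04), and *Ifi30*, a lysosomal thiol reductase (0.16 ± 0.05), lay just outside the threshold (limma adjusted p = 0.0528, 0.0574 and 0.0604). The median of the list was 0.15, above the 0.09 of the 10 class I genes, and the difference between the pathways was not tested.

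**Figure D5:**
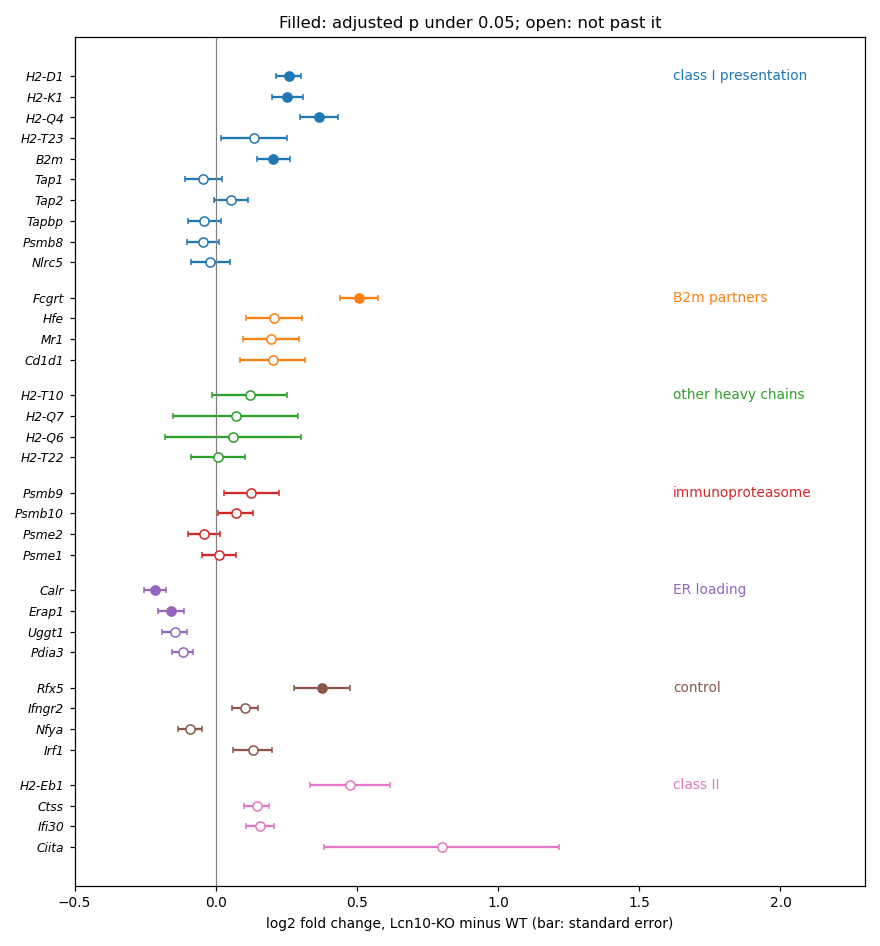
Log2 fold change, Lcn10-KO minus WT (horizontal axis), with its standard error for the 10 class I genes and up to 4 genes of each of 6 related lists. The genes that passed to the right are *H2-D1*, *H2-K1*, *H2-Q4*, *B2m*, *Fcgrt* and *Rfx5*, and those that passed to the left are *Calr* and *Erap1*.

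The targeted gene *Lcn10* was listed at 0 in all 6 libraries, so it cannot check the genotype labels. Depth, estimated from the step between low values, was about 18000000 to 24800000 reads per library. Macrophage markers were present at a sum that lay at 284718 to 295218 in WT and 298311 to 312830.0 in Lcn10-KO. Most of that sum was *Lyz2* (165280 to 180316 in WT and 181584 to 193715 in Lcn10-KO), which did not pass. Of the 9 markers, 4 passed the test (*Mertk* and *Adgre1* higher, *Csf1r* and *Cd14* lower), against 9.84% of all tested genes. Markers of dendritic, T and NK, and erythroid cells were at or near 0, with sums per list of at most 17.5 in WT and 20.7 in Lcn10-KO. B cell markers summed to 17.9 to 32.7 in WT and 33.6 to 40.1 in Lcn10-KO, without overlap. Nearly all of this was *Cd79b* (17.9 to 32.7 and 31.9 to 37.2), the only B cell marker tested, which did not pass (limma adjusted p = 0.358). Endothelial markers summed to 1376 to 1558 in WT and 1465 to 1982 in Lcn10-KO, were highest in Lcn10-KO replicate 2, where 7 of the 10 class I genes were highest too (all but *Tapbp*, *Psmb8* and *Nlrc5*), and 1 of 5 tested was called (*Vwf*, higher). Fibroblast markers summed to 2882 to 4470 and 3784 to 4268, granulocyte markers to 289 to 383 and 349.7 to 383, and mast cell markers to 30.7 to 43.2 and 47.4 to 58.3. The part of these cells in the class I values was not tested. In bulk RNA, fewer cells of a type and less RNA per cell cannot be told apart. Without Lcn10-KO replicate 2 the log2 fold changes of *H2-D1*, *H2-K1*, *H2-Q4* and *B2m* were 0.23, 0.22, 0.35 and 0.16.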

How the data were processed

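RNA of 6 libraries was sequenced, 3 per genotype. The submitters' processing notes name build mm10 and, without roles, DESeq2, Salmon 0.11.2, STAR 2.6.1a and bcl2fastq. Annotation, filters and strand setting were not given in the sources used here. Each deposited value is a signal, a normalized read count scaled by the authors, with library totals of 20476700 to 20636300. Low values were whole multiples of 1 read (0.824 to 1.14) within 0.1 reads for 90.7% to 92.6%, so reads were not recovered and no count model was run.

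The 12091 genes that reached a value of 10 in 3 or more libraries were compared on log2(value + 1) with limma 3.58.1 in R 4.3.3 (genotype only, trend, robust), with Benjamini-Hochberg adjustment and a threshold of 0.05. The scale understates changes of low genes. The members and lists were chosen with earlier results of these data known. Named were the 10 genes, up to 4 genes per list by p, and 5 genes of similar pattern with a mean of at least 50. *Vars*, *H2-M3* and the marker genes were chosen after their values were seen. The fit was tested on simulated data in which every gene had the same dispersion. It called 64.0% of 50 genes changed 1.25-fold and 96.0% of 50 changed 2-fold. With the same dispersion for every gene, the simulation cannot show how the trend acts on the real data. No 2 libraries of a genotype agreed within counting noise (variance at least 2.97 times that of counting). The variance was 9.38 and 8.4 times that of counting for WT replicate 1 with WT replicates 2 and 3, and 2.97 to 4.01 times for the other pairs. Positions and lengths are from GENCODE M21, promoters from RefSeq (GRCm38.p6), and 1 further motif searched in them is not reported here. Figures were drawn with matplotlib 3.10.9.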

Additional observations from a re-analysis of the deposited data

How the results depend on the processing

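Alternatives were quantile, median ratio and TMM scaling, limma without trend or without robust estimation, no filter or a minimum of 50, pseudocounts of 0.5 and 10, a replicate block, and each library left out. *H2-D1* kept its call in 15 of 16 alternatives, *H2-K1* and *H2-Q4* in 13 and *B2m* in 8, with the direction kept in all. Without the trend 14 genes were called in all, 0 of the 10 class I genes and 1 of the listed pathway genes (11 in the fit as reported). Leaving out 1 library gave 175 to 1664 called genes in place of 1190, 1 to 4 class I genes and 2 to 20 pathway genes. The lowest counts came without Lcn10-KO replicate 3 (175 and 2 pathway genes) and Lcn10-KO replicate 2 (1 class I gene), and the highest without WT replicate 2. The cause was not tested.

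Signs turned only in values that never passed. Over the omissions of 1 library, the log2 fold change ran from −0.1138 to 0.0023 for *Tap1*, −0.1009 to 0.0009 for *Tapbp*, −0.0939 to 0.0119 for *Psmb8* and −0.0843 to 0.0345 for *Nlrc5*. It ran from −0.1057 to 0.3232 for *H2-Q6*, −0.0292 to 0.1835 for *H2-Q7*, −0.0998 to 0.0787 for *H2-T22*, −0.0492 to 0.0616 for *Psme1* and −0.0803 to 0.0215 for *Psme2*. The log2 difference ran from −0.0135 to 0.143 for the *Psmb8* to *Psmb5* ratio and from −0.0238 to 0.0227 for the *H2-K1* to *H2-D1* ratio.

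The labels do not say that replicate numbers pair libraries. Deviations of same-numbered libraries correlated at 0.0382, 0.0734 and 0.0140 across genes, and those of other-numbered libraries at −0.0634 to 0.0262. Whether the libraries are paired was not tested. With the replicate block 1607 genes were called, 4 of the 10 class I genes and 19 pathway genes, against 1190, 4 and 11 in the fit as reported.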

Other observations

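Other genes of the MHC region on chromosome 17, among which the heavy chain genes lie, were listed by name. Of 56 tested, 0 rose and 5 fell in Lcn10-KO, and the median log2 fold change was −0.03. Among all 12091 tested genes 9.84% passed, 5.14% toward lower values, so the number called in the list was near the general share. *Notch4*, a Notch receptor gene, lay at 224.7, 190.6 and 197 in WT and 71.6, 94.7 and 67.6 in Lcn10-KO (log2 fold change −1.39 ± 0.14, limma adjusted p = 0.000222). *Wdr46*, *Tcf19*, *Mdc1* and *Vars* fell by 0.35, 0.23, 0.22 and 0.31 on the log2 scale (limma adjusted p of 0.0155 to 0.0215). In all 5 the genotypes did not overlap. Over the 56 genes, 5 had every Lcn10-KO library above and 13 every one below WT, and over all tested genes 32.4% did not overlap. The count of 5 dropped to 3 when Lcn10-KO replicate 1 was left out and to 1 when either replicate 2 or replicate 3 of Lcn10-KO was. It was 0 without the trend, where *Notch4* had an adjusted p of 0.0515.

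Cytosolic peptidases that trim or destroy proteasome products had 1 of 5 genes called. *Lap3*, leucine aminopeptidase, fell by 0.20 ± 0.06 on the log2 scale (limma adjusted p = 0.0446, lost in 8 of 16 alternatives: each omission of a library other than WT replicate 2, quantile scaling, no trend and no filter on low values). *Thop1*, *Tpp2* and *Blmh* had log2 fold changes of −0.19, −0.09 and −0.09 and did not pass. Every Lcn10-KO library lay below every WT library in each, an order found in 2044 of all 12091 tested genes. Among 8 cross-presentation genes 0 passed and 4 had an unadjusted p under 0.05 by limma, *Cybb* and *Stx4a* with positive and *Lnpep* and *Sec61a1* with negative fold changes.

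The ratio of *Tap1* to *Tap2*, looked at after the values were seen, was 1.04, 1.05 and 1.04 in WT and 0.951, 1.00 and 0.971 in Lcn10-KO, without overlap. *Fcgrt* relative to *B2m* was 0.0261, 0.0265 and 0.0262 in WT and 0.0310, 0.0328 and 0.0338 in Lcn10-KO. No test is given for these ratios.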
